A study of Mus musculus with 16 samples.

Results

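The 34 genes described here are transcripts enriched in microglia, the resident macrophages of the brain, and they were followed in whole-brain RNA-seq of adolescent mice that drank nicotine, ethanol, both or only water. They were taken by symbol from a list of known microglia genes, and they are 34 of the 24062 genes in the count table. All 34 were present in both deposited tables and all 34 passed the filter on low counts in every comparison. The members were chosen by their use as microglia markers, but with results of these mice known: the fold changes of ethanol alone and of both substances against WW had already put Cd180 and Cfp on the study's lists of changed genes, and ethanol alone also Cx3cr1 and Fcrls. Member values in those contrasts, Water-Ethanol vs WW and NE vs WW, are therefore a description. No p-value of a member is printed for them. The counts of members past the threshold there are given for completeness and support nothing. The tests given are those of NW vs WW, NE vs Water-Ethanol, NE vs NW and the interaction of nicotine and ethanol. Genes of other lists called in Water-Ethanol vs WW or NE vs WW are named for that reason, without a p-value.

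All mice were female, of the inbred strain C57BL/6J, singly housed, and killed on postnatal day 45, when the last 4 h drinking session ended. The groups held 4 mice each, 16 in all, drawn at random from a larger cohort, and each whole brain with its cerebellum gave 1 library. For 22 h per day the WW and Water-Ethanol mice drank tap water, and the NW and NE mice drank nicotine at 200 µg/ml in tap water, first for 6 days and then on the 4 days of the sessions. In these sessions, the drinking-in-the-dark protocol, a single bottle was offered for 2 h on the first days and for 4 h on the last. That bottle held 20% v/v ethanol for the Water-Ethanol group, shown by its initials in plots, and NE, and water for WW and NW. Doses were self-administered, only 1 sex and 1 strain were studied, and in whole brain a smaller number of microglia and less RNA per microglial cell cannot be told apart. Mice are named by group and number, and values are listed in the order WW 18, 19, 20 and 21, NW 7, 8, 10 and 11, Water-Ethanol 13, 14, 15 and 16, and NE 2, 3, 4 and 5.

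Microglia enter the brain from the yolk sac during development, survive on signals through the receptor Csf1r, and take on their identity under transforming growth factor beta, with transcription factors such as PU.1 (encoded by Spi1), Sall1 and Irf8. They survey the tissue with purinergic and chemokine receptors, make the complement protein C1q, clear synapses and debris through receptors that signal by the adaptor Tyrobp, and carry receptors that tune responses to bacterial products. Ethanol acts on the brain's immune cells in rodents, and genes of this kind are commonly read as a sign of microglial state or number.

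The promoters of 4 members whose values carry the comparisons are shown first: Cd180, an inhibitory relative of Toll-like receptor 4; Cfp, which encodes properdin, the stabiliser of the alternative complement pathway; P2ry13, a purinergic receptor of resting microglia; and Plek, encoding pleckstrin, a substrate of protein kinase C. RefSeq promoters on GRCm38.p6 were matched for 28 of the 34 members by symbol, and the 250 bases before the transcription start were searched on both strands for GAGGAA, the core of PU.1 sites, as the only motif. Each line runs 5′ to 3′ on the gene's strand, with a match in capitals. The windows are chr13:102693308-102693557 on the plus strand, and chrX:20931556-20931805, chr3:59210883-59211132 and chr11:17008719-17008968 on the minus strand.
Cd180: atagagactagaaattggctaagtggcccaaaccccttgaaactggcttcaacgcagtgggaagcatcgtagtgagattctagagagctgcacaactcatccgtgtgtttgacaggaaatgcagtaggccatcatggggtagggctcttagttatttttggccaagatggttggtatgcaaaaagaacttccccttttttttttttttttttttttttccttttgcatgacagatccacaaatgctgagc
Cfp: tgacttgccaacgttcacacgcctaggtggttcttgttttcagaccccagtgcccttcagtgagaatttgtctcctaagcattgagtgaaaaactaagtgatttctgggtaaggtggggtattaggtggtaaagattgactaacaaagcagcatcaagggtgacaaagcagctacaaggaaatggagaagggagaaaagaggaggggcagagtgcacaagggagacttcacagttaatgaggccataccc
P2ry13: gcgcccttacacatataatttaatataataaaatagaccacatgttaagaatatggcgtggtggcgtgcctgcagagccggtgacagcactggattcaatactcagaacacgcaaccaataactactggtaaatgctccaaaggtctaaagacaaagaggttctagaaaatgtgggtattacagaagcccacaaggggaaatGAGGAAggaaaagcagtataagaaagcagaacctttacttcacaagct
Plek: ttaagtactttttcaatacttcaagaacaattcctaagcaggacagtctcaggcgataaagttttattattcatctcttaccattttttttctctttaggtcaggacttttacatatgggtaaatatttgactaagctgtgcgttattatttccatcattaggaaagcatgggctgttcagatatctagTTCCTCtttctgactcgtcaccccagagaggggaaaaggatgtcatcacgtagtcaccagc
P2ry13 held GAGGAA as written, with its first base 48 bases before the start, and Plek held the reverse complement TTCCTC, with its first base 61 bases before it. These letters were not in the windows of Cd180 and Cfp. The motif was found in 15 of the 28 members' windows (53.6%), among them those of C1qb, C1qc, Trem2, Itgam, Cd68, Ctss, Fcrls and Ptprc, and in 23.3% of all 32851 promoters of the table. A match is a run of letters and not a measured binding site. Csf1r, C1qa, Gpr34, Selplg, Tmem119 and Tyrobp had no entry in the table.

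The libraries were of similar depth, with 27100352 to 32880979 counted reads per mouse (median 29448284). WW 21 and NW 10 stood apart. Gabra6, a marker of cerebellar granule cells, had 4159.7, 4486, 3967 and 1070.0 normalized counts in WW and 3517, 3830.2, 1654 and 3954 in NW, against 3423 to 4118 in the ethanol groups, so WW 21 and NW 10 had less RNA of this marker than the others. Rn45s, the precursor of ribosomal RNA, had 393308, 216456, 1200521 and 122956 normalized counts in NW, so NW 10 was highest, against 94191 to 132042 in NE and 81829 to 180656 in WW and Water-Ethanol. NW 10 also had 241 normalized counts of Prl, a pituitary hormone gene, and WW 19 had 48.0, against at most 1.08 in the other mice. WW 21 was also the mouse with the highest value in 20 of the 34 members, and NE 2 the mouse with the lowest value in 9. WW 18 was apart in neutrophil genes, with 53.0, 8.63, 4.89 and 11.5 normalized counts of S100a8 in WW and at most 20.9 elsewhere. Some of the results of the microglia list that rest on these mice are given with and without them. Their part in the results was not otherwise tested, and the other marker lists were not computed without them.

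The members are modest in level in whole brain. Their median was 7.02 FPKM (reads per transcript length and library size), a level that 63.8% of all genes did not exceed. Ctss, the lysosomal protease cathepsin S, was highest at a mean of 38.2 FPKM over 16 mice, with a range over mice of 34.3 to 43.7. C1qb, C1qc and C1qa, the 3 chains of C1q, followed at 28.8, 27.9 and 27.1 FPKM, and their ranges overlapped one another and that of Ctss. Csf1r came next at 22.9 FPKM and Tyrobp at 18.8. The lowest were Irf8 at 1.47, Ptprc, which encodes the leukocyte antigen CD45, at 0.803, and Cd180 at 0.646 FPKM. Within groups the members varied more than most genes, with a median SD of 0.146 in log2 CPM (counts scaled to library size) against 0.103 over all genes that passed the filter. Plek was the most even member (SD 0.0685), and Cfp (0.458) and Cd180 (0.397) were the most variable.

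The list was set beside markers of other immune cells, in lists of unequal length, so the sums alone cannot settle its label. Summed over the 34 members, levels lay between 556.4 and 749.8 CPM, whereas 9 markers of monocytes, neutrophils and lymphocytes summed to 1.01 to 7.06 CPM, the B-cell gene Ms4a1 and the T-cell gene Cd3e had at most 4.80 normalized counts in any mouse, and 10 markers of macrophages at the brain's borders summed to 23.6 to 39.3 CPM. The defining microglia markers Cx3cr1, P2ry12, Tmem119, Sall1 and Csf1r all had 336.3 or more normalized counts in every mouse. Csf1r, Mertk, Ctss and Tgfbr1, among others on the list, are also made by cells other than microglia.

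Normalized counts below are deposited read counts divided by edgeR's TMM-scaled library size and brought to the mean library of 29531325 reads. Log2 fold changes with standard errors come from edgeR's quasi-likelihood test on the 8 mice compared. Genes whose p-value, adjusted by Benjamini-Hochberg over all genes tested, was under 0.05 are said to be called. The smallest p-value an exact permutation test can give for 4 against 4 mice is 0.0286. Groups without overlap always give this value. It is printed only for such members, some of them named for that reason, so it restates the separation. It was not adjusted for the 34 members.

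**Figure D1:**
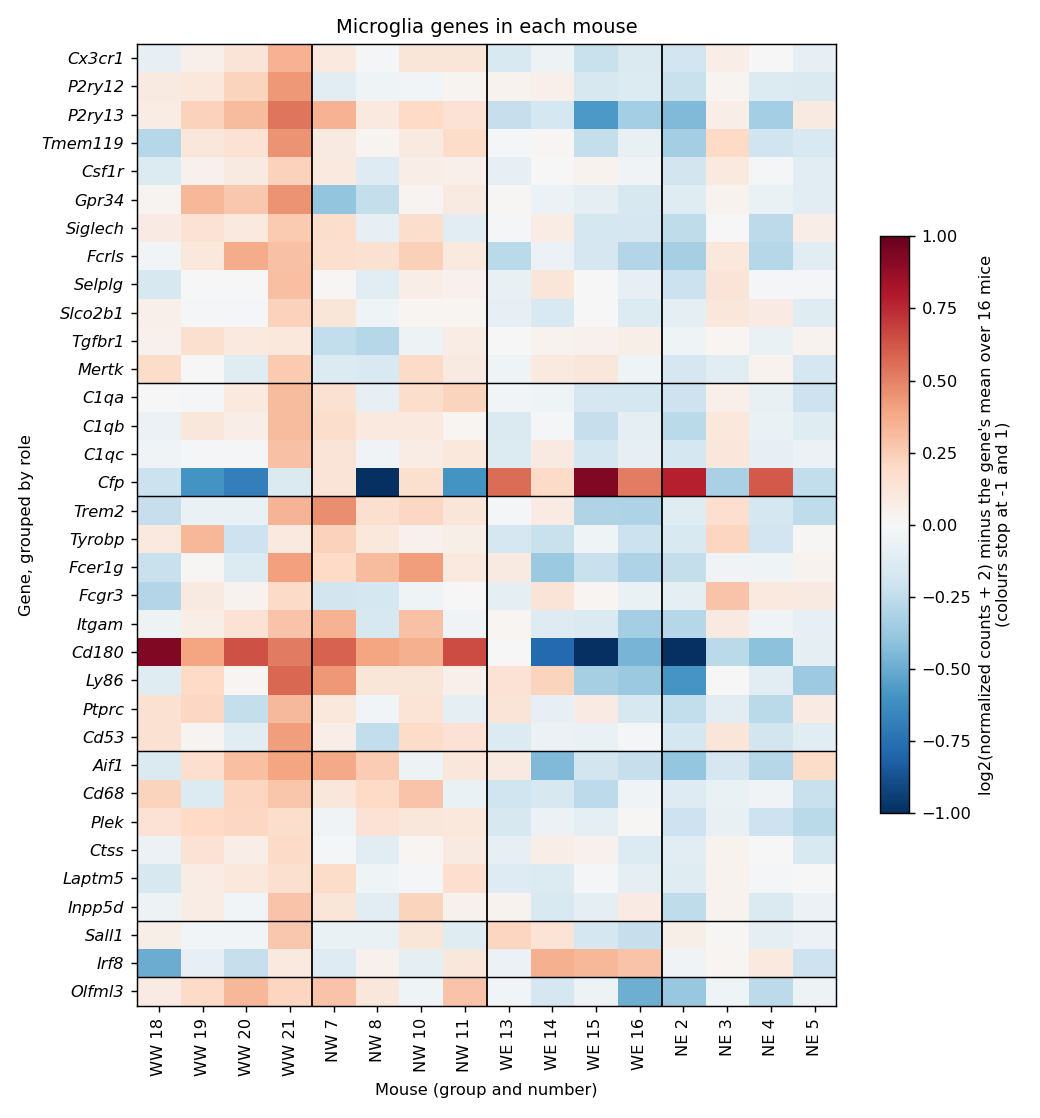
Each square is one of the 34 microglia genes (rows, in 6 groups by role) in one of the 16 mice (columns, grouped as WW, NW, Water-Ethanol and NE), coloured by log2(normalized counts + 2) minus the gene's mean over the 16 mice, with colours stopping at -1 and 1. Most rows are red in WW 21 and blue in NE 2, Cd180 is red in all 8 mice without ethanol, and Cfp has the opposite sign to Cd180 in most mice.

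The clearest member of the ethanol comparisons was Cd180, which lies at chr13:102693558-102706631 on GRCm38 and has 3 exons. Cd180 had 75.7, 51.8, 61.6 and 56.6 in WW, 59.4, 51.6, 50.2 and 62.4 in NW, 38.9, 21.8, 17.4 and 27.6 in Water-Ethanol and 13.7, 31.8, 28.8 and 36.4 in NE (normalized counts). All 8 mice that drank ethanol were below all 8 that did not, whether or not they had nicotine. The group means were 61.4 ± 10.3 in WW, 55.9 ± 5.91 in NW, 26.5 ± 9.32 for Water-Ethanol and 27.7 ± 9.85 for NE (SD, n = 4). The log2 fold change was -1.20 ± 0.22 (SE) in Water-Ethanol vs WW and -1.16 ± 0.24 in NE vs WW, values from contrasts in which the study had listed the gene. In NE vs NW, which shares no control mouse with Water-Ethanol vs WW, it was -1.03 ± 0.24 and the groups did not overlap (exact two-sided permutation p = 0.0286, the smallest possible), yet edgeR's adjusted p of 0.190 did not pass. The NE mice also entered NE vs WW, so this is not a wholly separate set of mice. In NW vs WW the difference was -0.13 ± 0.16 (edgeR adjusted p = 0.846) and in NE vs Water-Ethanol 0.045 ± 0.30 (adjusted p = 0.985). WW 18, the mouse high in neutrophil genes, had the highest Cd180, and without it the Water-Ethanol vs WW difference was -1.09. Without NW 10 the NE vs NW difference was -1.08, and without NE 2, the lowest mouse, -0.80. With so few reads per library, part of the spread of Cd180 is counting error.

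Ly86, whose product MD-1 is the partner that Cd180 needs at the cell surface, had 151, 189, 166 and 245 in WW, 223, 179, 179 and 170.0 in NW, 182, 192, 130.1 and 126 in Water-Ethanol and 108, 165, 153 and 128 in NE (normalized counts). All NE mice were below all NW mice, while Water-Ethanol and WW overlapped. The difference in NE vs NW was -0.45 ± 0.14 on the log2 scale (edgeR adjusted p = 0.268, exact permutation p = 0.0286), and in Water-Ethanol vs WW it was -0.25 ± 0.17. The related receptor Tlr4 and its partner Ly96, which were not members, had log2 fold changes of 0.11 ± 0.13 and -0.30 ± 0.25 in NE vs NW, with adjusted p-values of 0.769 and 0.656 by edgeR.

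Cfp went the other way. It lies at chrX:20925535-20931524 on the minus strand and had 236, 180.3, 170.1 and 248 in WW, 301, 131, 307 and 181 in NW, 405, 314, 521 and 392 in Water-Ethanol and 472, 219, 419.7 and 231 in NE (normalized counts). All Water-Ethanol mice were above all WW mice, whereas the NW mice fell into a lower and a higher pair, as did the NE mice. Means were 208 ± 38.9 in WW, 229.8 ± 87.9 in NW, 408 ± 85.7 for Water-Ethanol and 335 ± 129.6 for NE (SD, n = 4). The log2 fold change was 0.98 ± 0.15 in Water-Ethanol vs WW and 0.70 ± 0.24 in NE vs WW. For NE vs NW it was 0.55 ± 0.29, the groups overlapped and edgeR's adjusted p was 0.465. Of the 4 complement members, Cfp alone had a higher mean in Water-Ethanol than in WW and in NE than in NW.

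The other complement members were the chains of C1q, the protein that starts the classical pathway and tags synapses for removal, whose genes lie next to each other on chromosome 4. C1qa had 691, 686, 742 and 863 in WW, 772, 655, 783 and 808 in NW, 680.0, 672, 619 and 615 in Water-Ethanol and 602, 717, 661 and 601 in NE (normalized counts). C1qb had 714, 803, 781 and 924 in WW, 838, 798, 796 and 754 in NW, 673, 736, 633 and 699.9 in Water-Ethanol and 618, 799, 710.4 and 685 in NE, and C1qc had 684, 692, 696 and 857 in WW, 766, 681, 738 and 755 in NW, 636, 746, 618 and 662 in Water-Ethanol and 618, 757, 659.8 and 673 in NE. WW 21 was the highest mouse for each of the 3 genes. The log2 fold changes in NE vs NW were -0.23 ± 0.079 for C1qa, -0.19 ± 0.074 for C1qb and -0.12 ± 0.069 for C1qc, all with overlapping groups and none called (edgeR adjusted p = 0.298, 0.368 and 0.485). In Water-Ethanol vs WW they were -0.20, -0.23 and -0.13, and only C1qa had all Water-Ethanol mice below all WW mice.

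**Figure D2:**
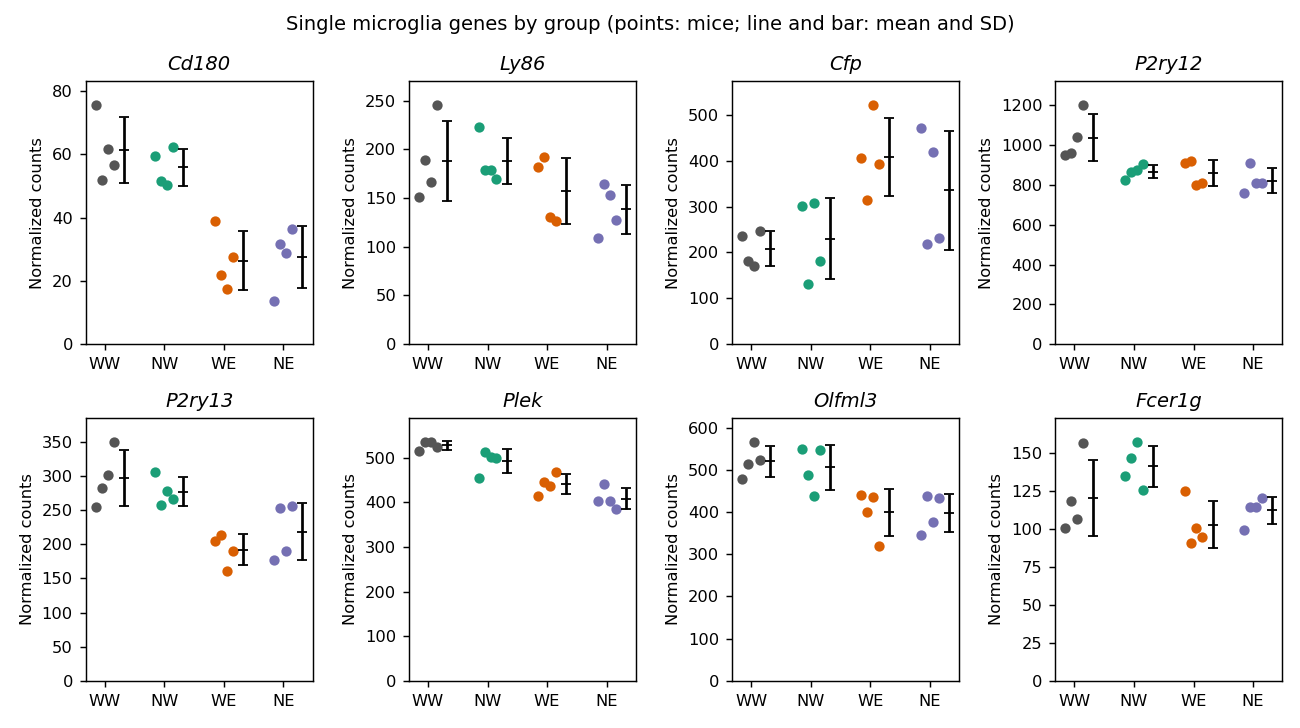
Normalized counts (vertical axes, from 0) of 8 microglia genes in the 4 groups, with 1 point per mouse and the mean with its SD beside each group. For Cd180 the 8 mice of Water-Ethanol and NE lie between 13.7 and 38.9, below the 8 mice of WW and NW at 50.2 to 75.7, while Cfp is higher in Water-Ethanol than in WW and splits into pairs in NW and NE.

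The 12 surface receptors and transporters of resting microglia are sensors of nucleotides, chemokines, growth factors and sialic acid. Of the 12, 10 had a negative log2 fold change in NE vs NW, with a median of -0.10 and a range from -0.35 to 0.11. None was called by edgeR. In Water-Ethanol vs WW all 12 were negative, with a median of -0.21.

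P2ry13 was the receptor with the largest difference. It had 254, 283, 301 and 350.4 in WW, 306, 258, 277 and 267 in NW, 205, 213, 161 and 190.1 in Water-Ethanol and 177, 253, 189.5 and 256 in NE (normalized counts). All Water-Ethanol mice were below all mice without ethanol, and all NE mice were below all NW mice, the nearest pair at 256.0 and 258.0. The log2 fold change was -0.62 ± 0.11 in Water-Ethanol vs WW, -0.44 ± 0.13 in NE vs WW and -0.35 ± 0.12 in NE vs NW, the last with an edgeR adjusted p of 0.311 and an exact permutation p of 0.0286. P2ry13 lies at chr3:59207894-59210882 inside the span of Med12l, on the opposite strand, without overlap of exons. Its neighbour P2ry12, the receptor that draws microglial processes toward released ADP, had 949, 960.2, 1039 and 1202 in WW, 823, 865, 875 and 906 in NW, 912, 922, 799 and 809 in Water-Ethanol and 762, 909, 809.7 and 808 in NE. For P2ry12 it was the WW mice that stood above every other mouse. It was lower in all NW than in all WW mice (-0.26 ± 0.075, exact permutation p = 0.0286, edgeR adjusted p = 0.325), and in NE vs NW the difference was -0.082 ± 0.060 (adjusted p = 0.614). Without WW 21 the NW vs WW difference in P2ry12 was -0.18.

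Fcrls, an Fc receptor-like gene found in mouse microglia, had 518, 567, 685 and 647 in WW, 595, 589, 624 and 567 in NW, 438, 508, 469 and 431 in Water-Ethanol and 419, 568, 433 and 491 in NE (normalized counts). Its Water-Ethanol mice were below all WW mice, and the NE mice below the NW mice but for 1 of them, NE 3. The log2 fold changes were -0.39 ± 0.088 in Water-Ethanol vs WW and -0.32 ± 0.088 in NE vs NW (edgeR adjusted p = 0.244). Cx3cr1, the receptor for the neuronal chemokine fractalkine, had 1168, 1281, 1351 and 1577 in WW, 1328, 1231, 1345 and 1349.7 in NW, 1111, 1194, 1060.3 and 1117 in Water-Ethanol and 1084, 1297, 1243 and 1168 in NE. The Water-Ethanol mice were below all WW mice, but for Water-Ethanol 14, which was above WW 18 alone. The difference of Cx3cr1 in NE vs NW was -0.14 ± 0.061 (adjusted p = 0.404). Tmem119, a membrane protein specific to microglia within the brain, had 351, 461, 472 and 583 in WW, 455, 435, 455 and 485 in NW, 423, 432, 362 and 407 in Water-Ethanol and 336, 489.7, 372 and 385 in NE. Its WW mice alone ran from the second lowest to the highest value of all 16, and in NE vs NW the difference was -0.22 ± 0.10 (adjusted p = 0.418). Csf1r, which binds Csf1 and Il34, had 2245, 2548, 2628 and 2906 in WW, 2640.0, 2265, 2587 and 2566 in NW, 2339.6, 2477, 2528 and 2408 in Water-Ethanol and 2172, 2639.7, 2448 and 2285 in NE. All groups overlapped, and the NE vs NW difference of -0.080 ± 0.067 (adjusted p = 0.658) was small beside the spread.

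Of the remaining receptors, Gpr34 and Tgfbr1 had opposite signs in NW vs WW and NE vs NW. Gpr34, a receptor for lysophosphatidylserine, was at 361 ± 44.0 normalized counts in WW, 274 ± 42.6 in NW, 283 ± 14.1 for Water-Ethanol and 284 ± 14.6 for NE (SD, n = 4), so that WW was highest and NW lowest. Its NW vs WW difference was -0.40 ± 0.12 (edgeR adjusted p = 0.343) and its NE vs NW difference 0.050 ± 0.10 (adjusted p = 0.877). Tgfbr1, the type I receptor through which transforming growth factor beta acts, was -0.22 in NW vs WW (adjusted p = 0.435) and 0.11 in NE vs NW. Among the rest, in NE vs NW, the sialic acid-binding lectin Siglech was at -0.16, the phagocytic receptor Mertk at -0.11, the organic anion transporter Slco2b1 at -0.033 and the selectin ligand Selplg at -0.033 on the log2 scale, none of them called.

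Among the 9 immune receptors, adaptors and integrin, 8 were negative in NE vs NW, with a median log2 fold change of -0.20. Fcer1g, the signalling chain shared by Fc receptors, had 101, 118, 107 and 156 in WW, 135, 146, 157 and 126 in NW, 125, 90.3, 100.4 and 94.5 in Water-Ethanol and 99.3, 114, 114 and 120.4 in NE (normalized counts). All NE mice were below all NW mice (-0.33 ± 0.11, exact permutation p = 0.0286, edgeR adjusted p = 0.293), while Water-Ethanol and WW overlapped. The NW mean of Fcer1g was also the highest of the 4 groups, with a NW vs WW difference of 0.23 ± 0.14 (adjusted p = 0.698). Trem2, a receptor for lipids and apolipoproteins, had 113, 128, 127 and 169 in WW, 185, 149, 154 and 146 in NW, 132, 141, 108 and 107 in Water-Ethanol and 122, 150.4, 118 and 111 in NE. It too was highest on average in NW, and its differences were 0.24 ± 0.14 in NW vs WW (adjusted p = 0.665) and -0.34 ± 0.12 in NE vs NW (adjusted p = 0.317). Tyrobp, the adaptor through which Trem2 signals, had 223, 261, 179.8 and 222 in WW, 243, 224, 214 and 216 in NW, 185, 178, 201 and 178 in Water-Ethanol and 186, 240.5, 182 and 209 in NE. Tyrobp overlapped in all comparisons, with a difference of -0.14 ± 0.10 in NE vs NW (adjusted p = 0.604). Fcgr3, a low-affinity receptor for immunoglobulin G, was the positive one of the 9 in NE vs NW at 0.20 ± 0.092 (adjusted p = 0.427), with values of 226, 227, 250.1 and 259 in NW and 242, 315, 276 and 274 in NE. The integrin Itgam was at -0.20, Ptprc at -0.17 and the tetraspanin Cd53 at -0.14.

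The 6 genes of signalling and the lysosome were all negative in NE vs NW, with a median log2 fold change of -0.22. Plek, at chr11:16971206-17008718, had 514, 534, 536 and 524 in WW, 454, 513, 502 and 499.9 in NW, 414, 445, 436 and 467 in Water-Ethanol and 403, 440.3, 402 and 385 in NE (normalized counts). Its groups formed steps with little spread: the 4 WW mice were above all others, the nearest pair at 514.4 and 513.2, the NE mice were below all NW mice, and the Water-Ethanol mice fell between NW and NE on average. The differences were -0.10 ± 0.058 in NW vs WW (exact permutation p = 0.0286, edgeR adjusted p = 0.676), -0.26 ± 0.055 in Water-Ethanol vs WW, -0.37 ± 0.057 in NE vs WW and -0.28 ± 0.066 in NE vs NW (exact permutation p = 0.0286, adjusted p = 0.206). Plek was the member with the smallest within-group SD, and it was called in NE vs NW when all 16 mice were fitted together (adjusted p = 0.0450). Of the others, Aif1, the actin-binding protein stained as IBA1, was at -0.35 ± 0.15 in NE vs NW and Cd68, a lysosomal membrane protein of phagocytes, at -0.25 ± 0.11 (adjusted p = 0.409 and 0.376 by edgeR). Ctss was at -0.060, the lysosomal membrane protein Laptm5 at -0.11 and the phosphatase Inpp5d at -0.18.

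The transcription factors had NE vs NW differences smaller than their errors. Sall1, which keeps microglia in their resident state, had 1065, 1003, 999 and 1227 in WW, 976, 975, 1107 and 936 in NW, 1183, 1122, 905 and 869.8 in Water-Ethanol and 1061, 1029, 956 and 979.6 in NE (normalized counts). Groups overlapped in all comparisons and the NE vs NW difference was 0.0092 ± 0.061 (edgeR adjusted p = 0.964). Irf8, a factor of macrophage development, had 101 ± 17.6 normalized counts in WW, 113 ± 9.22 in NW, 134 ± 17.2 for Water-Ethanol and 112 ± 10.1 for NE (SD, n = 4). Its Water-Ethanol mean was the highest, with 109, 146, 143 and 139 in the 4 mice, and it was one of 2 members, with Cfp, whose Water-Ethanol vs WW difference was positive (0.41 ± 0.14). In NE vs Water-Ethanol Irf8 was -0.27 ± 0.12 (adjusted p = 0.834). Olfml3, a secreted matrix protein made by microglia, had 478, 515, 567 and 522 in WW, 549, 488, 438 and 548 in NW, 441, 400.1, 435 and 319.7 in Water-Ethanol and 346, 437, 376 and 434 in NE. All Water-Ethanol mice and all NE mice were below all WW mice, and all NE mice below all NW mice, the nearest pair at 437.0 and 437.9. The difference was -0.38 ± 0.093 in Water-Ethanol vs WW, -0.39 ± 0.083 in NE vs WW and -0.35 ± 0.10 in NE vs NW (exact permutation p = 0.0286, edgeR adjusted p = 0.244).

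Counted together, the ethanol comparison among nicotine-drinking mice, NE vs NW, had 29 of 34 members with a negative log2 fold change and a median of -0.15, while over all 15361 genes tested the median was 0.0019 and 50.7% were positive. EdgeR called 0 members, and 0% of all genes. The likelihood-ratio test called 2 members, Cd180 and Plek, where 0.69% of all genes were called, the fit of all 16 mice called Plek alone, where 0.366% were, and DESeq2 and limma called 0. DESeq2 gave no adjusted p-value for Cd180, so its count leaves that gene out. At an unadjusted p under 0.05 there were 14 members, all lower, or 41.2% of the list, beside 4.94% of all genes lower at that level. The groups did not overlap for 6 members, all lower in NE (Cd180, Fcer1g, Ly86, Olfml3, P2ry13 and Plek), or 17.6% of the list, beside 3.03% of all genes. The NW mice had more Rn45s RNA than the NE mice, except NW 11, which lay within the NE range. Without NW 10, the NW mouse with the least Gabra6 and the most Rn45s RNA, 29 members were again negative with a median of -0.13, and without NW 7, the next highest in Rn45s, 29 with a median of -0.13. Without NE 2 the count was 29 and the median -0.11, with 9 members lower at an unadjusted p under 0.05. Members of a list are not replicates of one another, since they are read from the same 8 brains.

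In Water-Ethanol vs WW, the ethanol comparison without nicotine, 32 of 34 members were negative with a median log2 fold change of -0.20 (all 15323 genes, 0.0015, with 50.6% positive). The called members were 3, Cd180 and P2ry13 lower and Cfp higher, where 0.457% of all genes were called. The groups did not overlap for 9 members that were lower in Water-Ethanol (C1qa, Cd180, Fcrls, Gpr34, Olfml3, P2ry12, P2ry13, Plek and Siglech), where 5.68% of all genes were lower without overlap, and for Cfp, which was higher, where 5.13% of all genes were. Without WW 21, 28 members were negative with a median of -0.10, and 6 members were called (Cd180, Cfp, Fcrls, Olfml3, P2ry13 and Plek) where 5.17% of all genes were called (797, against 70 with all mice). Without WW 18 there were 4 (Cfp, Fcrls, Gpr34 and P2ry13), where 0.545% of all genes were called, and without WW 19, WW 20 or any 1 of the Water-Ethanol mice there were 0. In NE vs WW, 31 members were negative with a median of -0.19 where 51.4% of all genes were positive, Plek was called, where 0.313% of all genes were called, and 6 members were lower without overlap (Cd180, Olfml3, P2ry12, Plek, Siglech and Tgfbr1) beside 5.51% of all genes. Without WW 21 the median was -0.12, 28 members were negative and 3 were called (Cd180, Olfml3 and Plek), where 1.84% of all genes were called, and without any other 1 of the 8 mice 0 were called. Water-Ethanol vs WW and NE vs WW share the WW mice, and the study's own calls in them entered the choice of members, so nothing is read from these counts.

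**Figure D3:**
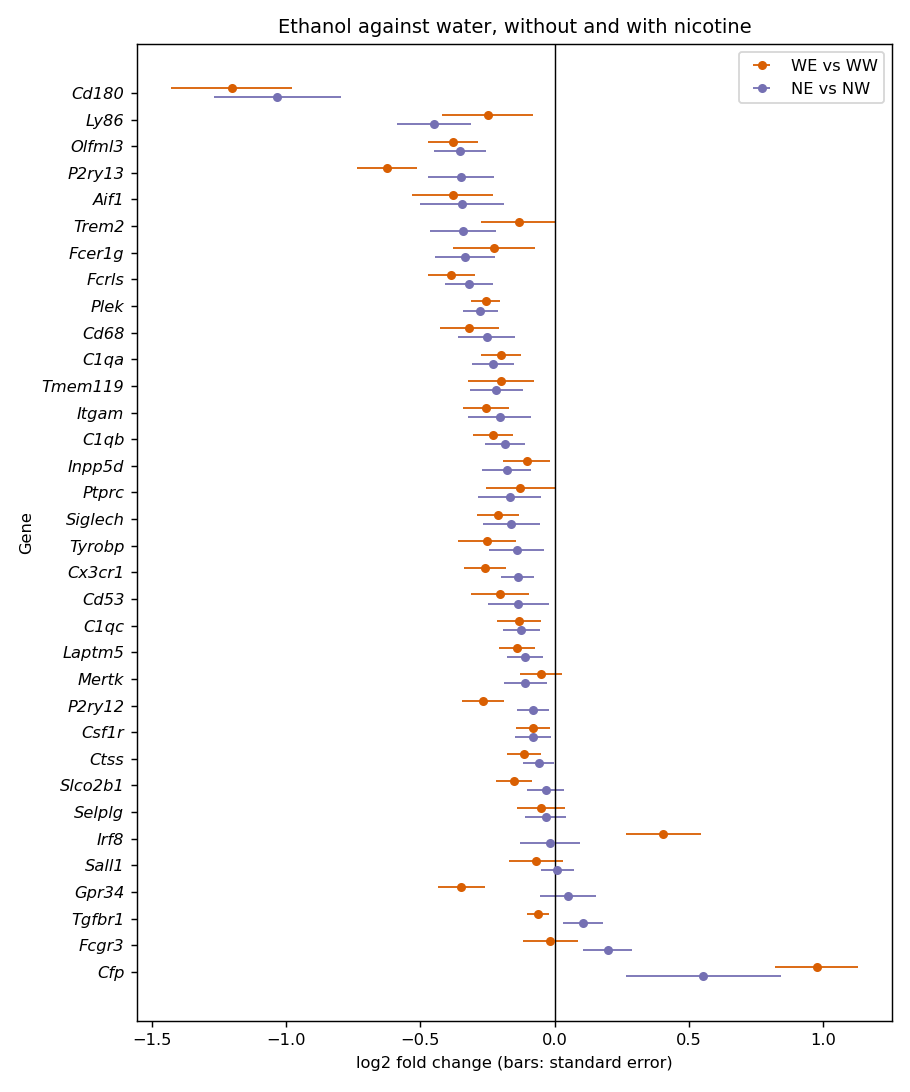
Log2 fold changes (horizontal axis, bars are standard errors) of the 34 microglia genes (rows) for ethanol against water in mice without nicotine (Water-Ethanol vs WW, orange) and with nicotine (NE vs NW, purple), ordered by NE vs NW. Most points lie left of 0 in both, from -1.20 and -1.03 for Cd180 at the top, and Cfp is at the far right of both.

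Nicotine alone was tested in NW vs WW, where the median of the list was nearer 0 than in the ethanol comparisons. EdgeR called 0 members and 0% of 15344 genes, and DESeq2, the likelihood-ratio test, limma and the fit of all 16 mice also called 0 members. There were 3 members at an unadjusted p under 0.05, all lower (Gpr34, P2ry12 and Tgfbr1), or 8.82% of the list beside 6.49% of all genes lower at that level. P2ry12 and Plek were lower without overlap, 5.88% of the list beside 4.24% of all genes. The count of negative members was 25 with a median of -0.033, where 53.6% of all genes were positive, and without WW 21 it was 13 with a median of 0.027, so the direction of the list turned on that mouse. Nicotine on top of ethanol, NE vs Water-Ethanol, gave 0 calls by edgeR among the members and 0% among 15319 genes, 18 negative members, a median of -0.0077 (-0.059 without NE 3 and 0.031 without NE 2) where 49.5% of all genes were positive, and 0 members without overlap, beside 3.52% of all genes. Irf8 and Mertk were the 2 members at an unadjusted p under 0.05, both lower, beside 2.6% of all genes. DESeq2, the likelihood-ratio test, limma and the fit of all 16 mice called 0 members as well. The study reported more ethanol intake and higher blood ethanol in NE than in Water-Ethanol mice on the last day. Nicotine and ethanol dose can therefore not be told apart in NE vs Water-Ethanol or in the interaction.

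Whether the ethanol difference depended on nicotine was asked with the interaction, (NE - NW) - (Water-Ethanol - WW), fitted on all 16 mice. EdgeR called 0 members and 0% of 15592 genes, and DESeq2, the likelihood-ratio test and limma called 0 members. Gpr34 (0.40 ± 0.14, edgeR adjusted p = 0.678) and Irf8 (-0.42 ± 0.18, adjusted p = 0.710) were the 2 members at an unadjusted p under 0.05, beside 6.76% of all genes, and 23 members were positive beside 50.2% of all genes, with a median of 0.046. That direction turned on single mice: without WW 21 there were 15 positive members and a median of -0.0076, and without NE 3 there were 16 and a median of -0.0096. The interaction was 0.18 ± 0.35 for Cd180 and -0.014 ± 0.081 for Plek (adjusted p = 0.957 and 0.988). For Cfp it was -0.41 ± 0.37 (adjusted p = 0.881). A call needs more than 2 such standard errors, since Gpr34 and Irf8 lay beyond that and were not called. Smaller changes of the ethanol difference were therefore not detectable in these 16 mice. The lack of a call does not show that the ethanol difference is the same with and without nicotine.

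As a score, the mean over the 34 members of log2 CPM centred on each gene's mean, the mice lay at -0.012, 0.076, 0.061 and 0.29 in WW, 0.11, -0.029, 0.12 and 0.067 in NW, -0.030, -0.049, -0.11 and -0.13 in Water-Ethanol, and -0.22, 0.029, -0.092 and -0.087 in NE. Every Water-Ethanol mouse was below every WW and NW mouse, and 3 of the 4 NE mice were too. The score was lower by 0.18 in Water-Ethanol than in WW, by 0.20 in NE than in WW and by 0.16 in NE than in NW, against a within-group SD of 0.092. It was lower by 0.037 in NW than in WW and by 0.012 in NE than in Water-Ethanol. Without WW 21 the Water-Ethanol vs WW difference was -0.12, the NE vs WW difference -0.13 and the NW vs WW difference 0.025. Without Cd180 and Cfp the NE vs NW difference was -0.15. No p-value is given, since the members were chosen with these results known.

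Markers of other cell types had differences of their own, in some lists as large as those of the microglia genes. In NE vs NW the 8 oligodendrocyte markers were all negative (median log2 fold change -0.076), 7 of 8 endothelial markers were negative (-0.071), 7 of 8 astrocyte markers were negative (-0.054), and the 8 cerebellar granule cell markers were all positive (0.16). The cerebellar score was -0.78 in NW 10, against 0.061 to 0.16 in the other NW mice and 0.046 to 0.17 in NE. Neuron markers had a median of -0.016 and olfactory bulb markers -0.013. None of these genes was called in NE vs NW, where the largest difference of each list was -0.34 for Opalin, -0.19 for Slco1a4, -0.21 for Aldh1l1, 0.37 for Neurod1, -0.051 for Slc17a7 and -0.41 for Tbx21. Of 8 choroid plexus markers 6 were positive (median 0.045), the largest being Kcnj13 at 0.52 ± 0.085 (edgeR adjusted p = 0.134). In Water-Ethanol vs WW, where the microglia genes had a median of -0.20, the medians were -0.31 for olfactory bulb markers (6 of 8 negative), -0.21 for oligodendrocyte (8 of 8 negative), -0.063 for endothelial, -0.066 for astrocyte and 0.24 for cerebellar markers. Kcnj13 was called there (0.63 ± 0.089). In NE vs WW the medians were -0.31 for olfactory bulb, -0.17 for oligodendrocyte and 0.18 for cerebellar markers, and in NW vs WW the olfactory bulb median was -0.28. The cerebellar score was -1.08 in WW 21, against 0.070 to 0.20 in the other WW mice and 0.034 to 0.21 in Water-Ethanol. Medians of the cerebellar markers without NW 10 or WW 21 were not computed. Slco1a4, an organic anion transporter of the brain's capillaries, was called in NE vs WW (-0.31 ± 0.043). Kcnj13 and Slco1a4 are named for these calls, so the calls are a description. The 9 border macrophage markers tested had a median of -0.23 in NE vs NW, 6 of them negative, with Mrc1 the largest at -0.38 ± 0.19 (edgeR adjusted p = 0.457), and their summed level was 26.7 to 39.3 CPM in NW and 23.6 to 33.1 in NE. The part of these cell types in the microglia values was not tested.

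**Figure D4:**
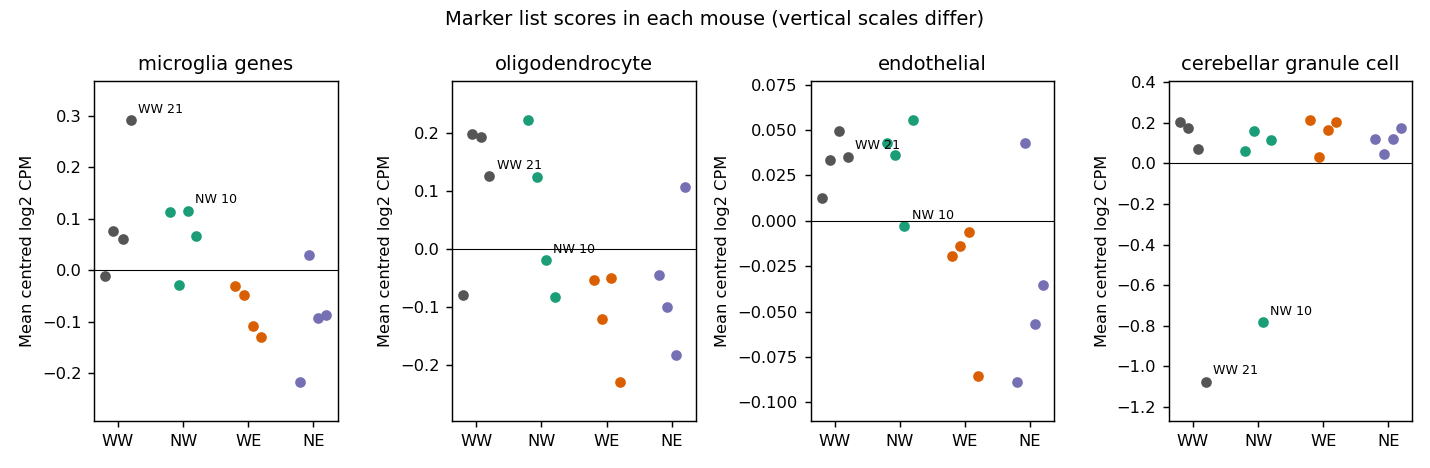
Scores (vertical axes, mean log2 CPM of a list centred on each gene's mean, with scales that differ between panels) of the microglia genes and of oligodendrocyte, endothelial and cerebellar granule cell markers in the 4 groups, 1 point per mouse. WW 21 is the highest mouse for microglia genes at 0.29 and the lowest for cerebellar markers at -1.08, and NW 10 is second lowest for cerebellar markers at -0.78.

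The ligands and partners of the members were measured as a list of 24 genes, which had a median log2 fold change of 0.0007 in NE vs NW, 12 negative and 12 positive. The survival factors Csf1 and Il34 were at 0.0056 and -0.017, fractalkine (Cx3cl1) at -0.064, and Spi1 at 0.060, none called. Tgfb3, one of the 3 ligands of the transforming growth factor beta receptors, had 495, 484, 479.9 and 447 in WW, 477, 488, 449.9 and 521 in NW, 616, 589.7, 685 and 664 in Water-Ethanol and 679.9, 621, 638 and 607 in NE (normalized counts). All 8 mice that drank ethanol were above all 8 that did not. Tgfb3 was called in Water-Ethanol vs WW (0.42 ± 0.061) and in NE vs WW (0.42 ± 0.057), 2 comparisons that share the WW mice. It is named for these calls, so they are a description. In NE vs NW it was at 0.39 ± 0.063 (edgeR adjusted p = 0.134). Tgfb1 and Tgfb2, the other ligands, were at 0.035 and 0.030 in NE vs NW. Mef2a, a transcription factor active in microglia and neurons, was at 0.20 ± 0.055 (adjusted p = 0.247).

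Complement genes outside C1q and properdin, genes that rise in microglia around amyloid plaques and inflammation genes were not called by edgeR in any comparison. Calls in these lists were not counted in the alternative fits. Of 17 complement genes tested in NE vs NW, 11 were negative (median -0.070), with the largest difference in Masp2 (-0.54, edgeR adjusted p = 0.580) and C3 and C4b at 0.072 and 0.014. Of 23 genes tested that rise in microglia around amyloid plaques, 18 were negative (median -0.082), with the largest difference in Cd52 (-0.52, edgeR adjusted p = 0.380), and Apoe and Clec7a at -0.088 and -0.51. Their list summed to 4176 to 4774 CPM per mouse, against 556.4 to 749.8 for the 34 members. How much of the RNA of this list came from microglia was not tested. Of the 16 interferon-response genes tested, 12 were negative (median -0.045), the largest difference being 0.24 in Ifih1. In Water-Ethanol vs WW, 3 of 17 interferon-response genes were higher without overlap (Ifi27, Irf9 and Stat2), beside 5.13% of all genes. There 1 was lower without overlap, beside 5.68% of all genes. Only 6 of 17 cytokine and chemokine genes had enough reads to be tested, with the largest difference in Nlrp3 (-0.45, edgeR adjusted p = 0.645). Tnf and Il6 had at most 4.39 and 1.09 normalized counts in any mouse, and Il1b at most 8.93, so that differences in them were not detectable at this depth.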

How the data were processed

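RNA-seq of 16 whole brains was analysed, 4 mice in each of WW, NW, Water-Ethanol and NE, grouped by the sample labels. Per the labels and methods, the authors trimmed reads with Trimmomatic 0.32, aligned them to GRCm38 (mm10) with TopHat2 and deposited 1 table of read counts per gene, not normalized. The authors also deposited FPKM from the Cufflinks tools, which keep no read depth. Which program counted the reads, and whether by strand, is not given in the sources used here, and the labels and the methods name library kits that differ in strandedness. No member's exons overlapped those of another counted gene.

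Counts were tested with edgeR 4.0.16 (R 4.3.3): default filter on low counts, TMM factors, quasi-likelihood test, Benjamini-Hochberg adjustment at 0.05, each pair of groups fitted alone on 8 mice and the interaction on 16. Standard errors are the absolute log2 fold change over the square root of F. Total counts ran from 27100352 to 32880979 per mouse. Scores used log2 CPM with a prior count of 2. Exact two-sided permutation tests were run on single members. Alternatives were RLE factors, DESeq2 1.42.0, the likelihood-ratio test, no filter, limma 3.58.1 on log2(FPKM + 1) and log2(FPKM + 0.1), all mice in 1 fit, and leaving out each mouse. The tests were run on simulated counts with known changes. Plots were drawn with matplotlib 3.10.9. Promoters came from RefSeq (GRCm38.p6), and gene positions from the authors' count table on GRCm38.

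The members, gene lists and tests were chosen with earlier results of these data known. Mouse-by-mouse values were given for members called in any comparison, those whose groups did not overlap in NW vs WW, NE vs Water-Ethanol or NE vs NW, the defining markers, and Cd180, Cfp and Fcrls; of other lists, called genes or the gene with the largest NE vs NW difference were to be named. Other genes of these lists were named after their values were seen. The labels do not say more of the mice than that they are separate animals. 1 gene of the lymphocyte markers is not reported here and was left out of their sum. Intake and blood ethanol were not analysed here.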

Additional observations from a re-analysis of the deposited data

Results flagged for a closer look

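In 76 groups of 4 mice examined (18 members in 4 groups, and the score), 1 had a mouse apart from the other 3 by Dixon's criterion. The groups come from the same 16 mice and are not separate draws, so this count was not set against a chance rate. C1qc was at 857.0 normalized counts in WW 21, against 684.1 to 695.9 in the other WW mice, a gap of 0.93 of the range. WW 21 is also the mouse with the least Gabra6 RNA, and the highest mouse in 20 of the 34 members. No member's interaction of nicotine and ethanol passed the threshold.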

How the results depend on the processing

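No paired analysis was possible, because the groups were different mice, assigned at random in the study. The mouse numbers ran in blocks by group, and whether they follow an order of handling is not given. Of 571 alternative values for single members, 3 changed sign, 39 lost a call and 27 gained one. The 3 were Sall1 in NE vs NW, which was 0.0092 with all mice and -0.0034 without NW 8, -0.022 without NW 11 and -0.021 without NE 2 (-0.022 to 0.061 over all mice left out in turn). In Water-Ethanol vs WW the 3 called members became 8 with DESeq2, 9 with the likelihood-ratio test, 0 in each of the limma fits, and 0 to 6 when a mouse was left out; over all genes, 70 calls became 590 with DESeq2, 620 with the likelihood-ratio test, 28 in the fit of all 16 mice, 143 without a filter and 0 with limma on FPKM, and 0 to 797 when a mouse was left out. In NE vs WW the 1 called member became 2 in the fit of all 16 mice, 4 with DESeq2, 5 with the likelihood-ratio test, 0 with limma and 0 to 3 when a mouse was left out; over all genes, 48 calls became 517, 375 and 1 with DESeq2, the likelihood-ratio test and limma, and 0 to 283 when a mouse was left out. In NE vs NW the 0 called members became 1 in the fit of all 16 mice and 2 with the likelihood-ratio test; over all genes the calls were 57, 106, 96 (DESeq2) and 3 (limma). DESeq2 gave no adjusted p-value for Cd180 in Water-Ethanol vs WW, NE vs WW or NE vs NW. The same held for Cfp and P2ry13 in NE vs WW. Its counts of called members leave these out. In NW vs WW the 0 calls over all genes became 112 in the fit of all 16 mice, 122 with DESeq2 and 113 with the likelihood-ratio test, none of them a member. The cause of these changes was not tested. The largest change in direction of the list as a whole came with WW 21 in NW vs WW (25 negative members with it, 13 without). The score differences moved by less than their within-group SD under every alternative, with the NW vs WW score at -0.037 with WW 21 and 0.025 without it. Low counts limit Cd180, whose within-group SD of log2 CPM was 0.397.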
